A study of Homo sapiens with 6 samples.

Results

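The subject of this report was the baseline transcriptome of 21NT cells that carried an empty vector (EV), the 2 libraries that serve as control in a study of 6. 21NT is an established human breast line that mimics ductal carcinoma in situ (DCIS), a growth of malignant epithelial cells inside the milk ducts, and it belongs to the 21T series of related lines. The study asked what the 2 splice isoforms of the transcription factor TBX3 do in these cells, and its other 4 libraries came from 21NT cells with TBX3iso1 or TBX3iso2 added. Those 4 libraries were not used here, and no contrast was made. EV cells had received pcDNA3.1 without an insert, were selected with G418 and were pooled as resistant clones, so both libraries come from 1 pooled transfectant line. They were grown in αMEM that held 2.8 µM hydrocortisone, EGF at 12.5 ng/ml, insulin at 1 µg/ml, gentamycin at 50 µg/ml and 10% serum (FBS), and RNA was taken at 80% confluence. Insulin, EGF and a glucocorticoid were therefore present throughout. Per the paper, the stable transfectants were also kept in G418. The sources do not say whether the 2 libraries came from separate cultures, so the spread between them (SD, n = 2) may be technical.

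The values are RPKM, that is, reads divided by the length of the transcript and by the depth of the library, so levels can be compared between genes as well as between libraries. The table gave 1 value for each of 20824 genes, and genes without a line in it were not analysed here. Throughout, 2 values given for a gene are EV library 1 and EV library 2 in that order, and a gene was counted as expressed at a mean of at least 0.5 RPKM. No test was run, since there is no contrast.

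Normal milk ducts hold an inner layer of luminal cells, which make keratins 8, 18 and 19 and carry the hormone receptors, and an outer layer of basal or myoepithelial cells, which make keratins 5 and 14, contractile proteins and the basement membrane. DCIS cells are mostly of luminal type and stay behind a myoepithelial layer. Breast tumours are further sorted by the oestrogen receptor (*ESR1*), the progesterone receptor (*PGR*) and the receptor tyrosine kinase HER2 (*ERBB2*), the last of which is often amplified together with its chromosomal neighbours.

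EV library 1 held 54512400 alignments and EV library 2 held 43176600. A single alignment on a transcript of 1 kb was therefore worth 0.0183 RPKM in the first of these and 0.0232 RPKM in the other, and 3 such alignments, the limit that a count of 0 allows, were worth 0.055 and 0.0695 RPKM, for counting error only. On transcripts of that length, values below 0.1 RPKM accordingly rest on a handful of alignments. Across the 12955 expressed genes the log2 difference between libraries, after 0.1 RPKM was added, had an SD of 0.18 and a median of -0.03, and Pearson's r across these genes, which are not independent replicates, was 0.996. The spread was 0.32 on the log2 scale for genes above 0 and below 0.1 RPKM, where the 0.1 RPKM added exceeds the values, and 0.63 between 0.1 and 0.5 RPKM. From there it narrowed with the level, to 0.23 between 0.5 and 10, 0.08 between 10 and 100 and 0.05 at 1000 RPKM or more. Of the genes between 10 and 1000 RPKM, 0 differed by more than 1 on the log2 scale, against 52 between 0.5 and 10 RPKM.

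**Figure D1:**
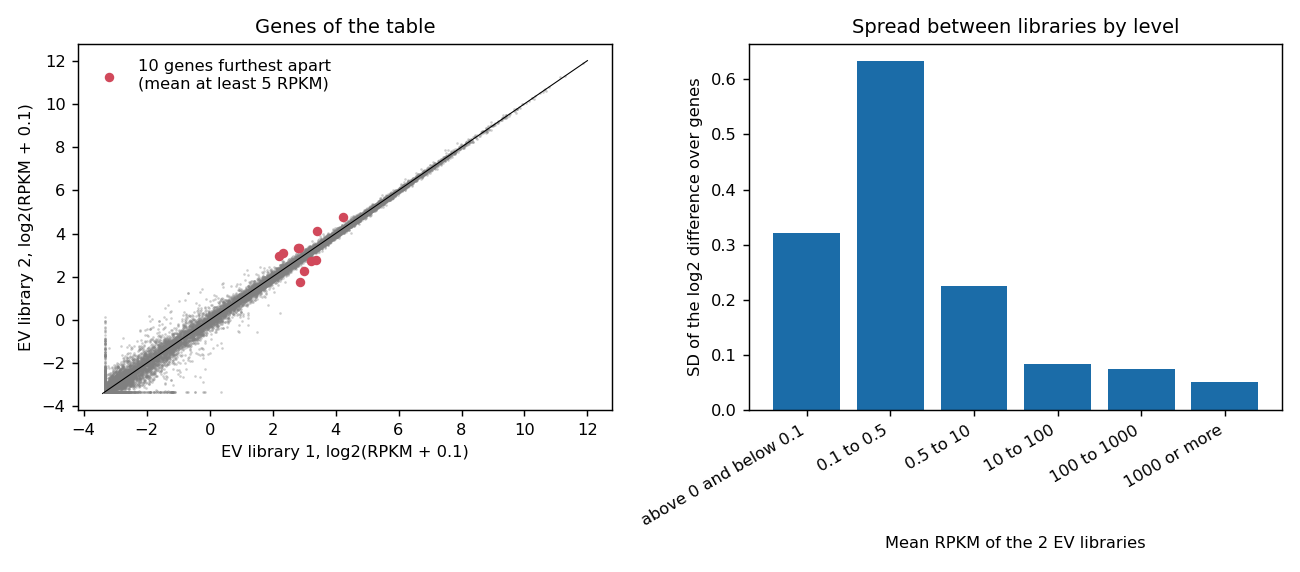
Left, each gene's log2(RPKM + 0.1) in EV library 1 (x axis) and EV library 2 (y axis), with the line of equality and, in red, the 10 most discordant genes of mean 5 RPKM or higher. Right, how far the libraries differ in each abundance class, as the SD of log2 differences over genes; it was highest at 0.63 between 0.1 and 0.5 RPKM and lowest at 0.05 at 1000 RPKM or more.

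The 10 genes of at least 5 RPKM that lay furthest apart were mostly of kinds that share sequence with other genes. *POLR2J2*, a copy of an RNA polymerase II subunit gene, was at 7.23 and 3.33 RPKM. The small nucleolar RNAs *SNORA8* (4.88 and 8.46 RPKM) and *SNORA104* (4.52 and 7.8 RPKM) lie inside other transcripts. The read-through genes *RBM14-RBM4* and *MINOS1-NBL1* and the multicopy *NPIPA5*, *NPIPB3* and *NPIPB5* made up 5 more. *BMI1*, a Polycomb subunit, was at 9.24 and 6.46 RPKM and *SDS*, serine dehydratase, at 7.09 and 10.1 RPKM. Reads could align to up to 10 places, and very small fractional values in the table show that reads were divided among genes, so levels of near-identical copies are uncertain.

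Expression was spread over many genes. Of the 20824 genes, 12955 (62.2%) were expressed, 5600 (26.9%) lay below 0.1 RPKM, and 1160 of these were listed at 0 in both libraries. A further 2269 lay between 0.1 and 0.5 RPKM, and 326 genes fell on opposite sides of 0.5 RPKM in the 2 libraries. The median over all genes was 2.02 RPKM, and over expressed genes 7.71 RPKM. At the upper end, 557 genes (2.67%) reached 100 RPKM and together made up 46.5% of the summed RPKM. The 10 most abundant genes held 5.98% ± 0.0795 (SD, n = 2) of the sum, the highest 100 held 22.7% ± 0.22 and the highest 1000 held 57.0% ± 0.334. The 684 most abundant genes accounted for 50% of the sum.

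**Figure D2:**
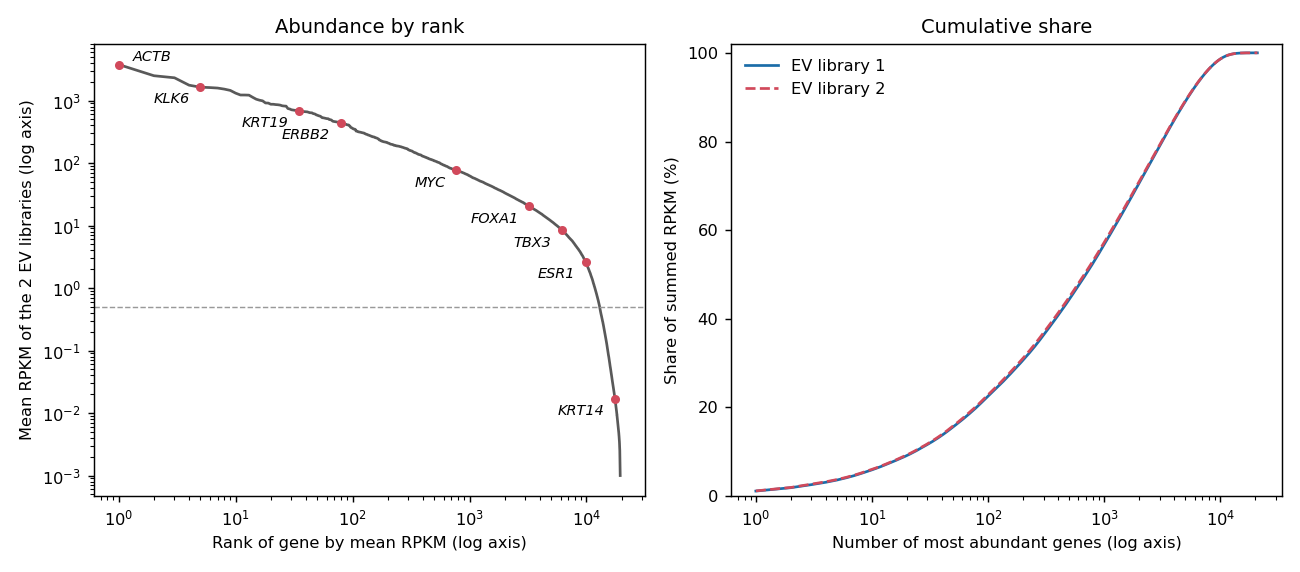
Left, mean RPKM of the 2 EV libraries against the rank of the gene, both on log axes, with genes named in the text in red and the threshold of 0.5 RPKM dashed; *KLK6* ranks 5, *ERBB2* ranks 79 and *TBX3* ranks 6188. Right, the share of summed RPKM held by the most abundant genes (log axis) in each library; the curves of the 2 libraries lie on each other, with 57.0% reached at 1000 genes.

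The most abundant transcript was *ACTB*, cytoplasmic β-actin, at 3715 and 3811 RPKM. Other genes that bind or build actin stood beside it: *TMSB10* (2479 and 2505 RPKM) and *TMSB4X* (994 and 1029 RPKM) encode thymosins that sequester actin monomers, *CFL1* (1057 and 1041 RPKM) encodes cofilin, which severs filaments, and *ACTG1* encodes γ-actin (848 and 862 RPKM). *ACTB* was 4.4-fold higher than *ACTG1*. *TUBA1B*, an α-tubulin of microtubules, was at 1263 and 1186 RPKM. Both ferritin chains were among the highest 13 genes. *FTH1*, the heavy chain that oxidises iron, was at 2218 and 2401 RPKM and *FTL*, the light chain, at 1206 and 1229.8 RPKM. *FTH1*, *TUBA1B*, *EEF1A1* and the actins have processed pseudogenes, so some of their reads could have been divided.

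Among the highest 25 genes, 7 encode ribosomal proteins, led by *RPL41* at 1760.4 and 1755 RPKM and *RPS2* at 1448 and 1454 RPKM. Others were *RPL19* (988), *RPLP0* (871), *RPL8* (871) and *RPL30* (861), given as mean RPKM. All 79 ribosomal protein genes were expressed, with a median of 313 RPKM, and they made up 9.34% ± 0.204 (SD, n = 2) of the summed RPKM. *EEF1A1*, which brings aminoacyl-tRNA to the ribosome, was at 1562 and 1604 RPKM. The chaperones *HSP90B1* (814 and 876 RPKM), of the endoplasmic reticulum, and *HSP90AB1* (837 and 810.5 RPKM), of the cytoplasm, completed the part of the list concerned with making and handling protein.

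Energy metabolism entered the highest 10 with the glycolytic genes *PKM* (1658 and 1565 RPKM) and *GAPDH* (1542 and 1502 RPKM). All 23 genes of the glucose and glutamine list were expressed, with a median of 184 RPKM against 2.02 RPKM over all genes. *ALDOA*, *ENO1*, *TPI1* and *PGK1*, which encode enzymes along the same route, had means of 639, 618, 309 and 259 RPKM. Lactate dehydrogenase A was above the B subunit, with *LDHA* at 459 and 461 and *LDHB* at 284 and 293 RPKM. Of the transporters, the glucose carrier *SLC2A1* was at 236 and 218 RPKM, the lactate exporter *SLC16A3* at 206 and 189 RPKM and the amino acid exchanger *SLC7A5* at 206 and 197 RPKM, whereas the glucose carrier *SLC2A3* was at 1.95 and 1.83 RPKM. All 14 genes of lipid synthesis were expressed, from *CD36*, a fatty acid receptor, at 2.67 and 3.08 RPKM to *FASN*, fatty acid synthase, at 148 and 125 RPKM.

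*KLK6* was the fifth most abundant gene, at 1625 and 1642 RPKM. It encodes kallikrein-related peptidase 6, a secreted serine protease, and its level was 43.4% of that of *ACTB* (43.7% and 43.1% by library). Also in the highest 15 were *S100A6* (1297 and 1325 RPKM), a calcium-binding protein, *MT2A* (1219 and 1231 RPKM), a metallothionein that binds zinc, and *CTSD* (1138 and 1111 RPKM), the lysosomal aspartic protease cathepsin D.

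All 12 genes of the luminal keratin and surface list were expressed, with a median of 158 RPKM, and the lowest was *CLDN3*, a tight junction claudin, at 5.12 and 4.42 RPKM. The simple-epithelium keratins were the highest, with *KRT19* at 697 and 662, *KRT8* at 689 and 654, *KRT18* at 607 and 602 and *KRT7* at 577 and 556 RPKM. *KRT8* and *KRT18*, whose proteins pair in filaments, were within 1.11-fold of each other; the annotated bounds of these neighbours on chromosome 12 overlap on opposite strands. The adhesion molecule *EPCAM* (181 and 188 RPKM), the mucin *MUC1* (169 and 172 RPKM) and E-cadherin, *CDH1* (148 and 142 RPKM), were each more than 50 times the median gene.

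The transcription factors and targets that mark hormone-sensing luminal cells were less uniform. Of 12 found, 8 were expressed (66.7%, near the 62.2% of all genes) and 4 lay below 0.1 RPKM, with a median of 1.84 RPKM. *AGR2*, a secretory protein disulphide isomerase, was at 162 and 173 RPKM, far above the rest. Of the factors, *XBP1*, of secretory cells, was at 47.4 and 47.2 RPKM, *SPDEF*, an ETS factor, at 25.7 and 23.8 RPKM and the pioneer factor *FOXA1* at 20.6 and 19.9 RPKM. *GATA3*, a luminal master regulator, was lower at 4.59 and 4.49 RPKM. The oestrogen receptor *ESR1* was at 2.7 and 2.5 RPKM, close to the median of all genes, and its target *GREB1* was at 0.663 and 0.602 RPKM. *PGR* (0.00173 and 0 RPKM) and the oestrogen-responsive *TFF1* (0.0459 and 0 RPKM) were near 0, and *TFF3* was listed at 0 in both. The genes of the luminal progenitor list split in the same manner, with 60% expressed, again near the share of all genes. Of 10, 6 were expressed, led by the protease inhibitor *SLPI* (128 and 144 RPKM), the retinaldehyde dehydrogenase *ALDH1A3* (49.6 and 48.7 RPKM), the ETS factor *EHF* (22.4 and 22.4 RPKM) and *SOX9* (18.6 and 18.5 RPKM), whereas *ELF5*, the alveolar ETS factor, was at 0.0439 and 0.0445 RPKM and the receptor *KIT* at 0.00437 and 0 RPKM.

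Genes of the basal layer were expressed in part. Of 19, 16 passed 0.5 RPKM (84.2%, against 62.2% of all genes), with a median of 3.21 RPKM, near the 2.02 RPKM of all genes. The high members were *KRT6A* (329.7 and 301 RPKM), a keratin of stressed and dividing epithelium, the caveolar protein *CAV1* (179 and 181 RPKM), integrin β4, *ITGB4* (171 and 154 RPKM), and P-cadherin, *CDH3* (106 and 100.4 RPKM). The defining basal keratins were not among them. *KRT5* was at 2.93 and 2.73 RPKM, and *KRT14*, its usual partner, at 0.0149 and 0.0188 RPKM, below the value of 1 alignment per kb in both libraries. *TP63*, the basal master regulator, was at 3.04 and 3.66 RPKM. The smooth muscle genes of myoepithelium were divided. Smooth muscle actin, *ACTA2*, was at 3.92 and 4.34 RPKM and myosin light chain kinase, *MYLK*, at 2.65 and 2.16 RPKM, whereas calponin, *CNN1*, was at 0.0237 and 0.015 RPKM and smooth muscle myosin, *MYH11*, at 0.00654 and 0 RPKM. *KRT6A* shares most of its sequence with *KRT6B* (3.64 and 2.79 RPKM) and *KRT6C* (2.07 and 1.94 RPKM), so the split among the 3 is uncertain. *KRT81* (436 and 435 RPKM) and *KRT86* (60.6 and 65.2 RPKM), hair keratins by name, were the other high keratins and are likewise near-identical in sequence.

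Of the 17 mesenchymal genes, 11 were expressed (64.7%, near the 62.2% of all genes), with a median of 4.30 RPKM. The highest was *TWIST1* (30.3 and 32.7 RPKM), a factor of epithelial-mesenchymal transition (EMT). The related factor *SNAI2*, which encodes SLUG, was at 12.5 and 11.9 RPKM, *SNAI1* at 3.91 and 3.88 RPKM and *ZEB1* at 1.07 and 1.12 RPKM, while *ZEB2* was at 0.144 and 0.175 RPKM and *TWIST2* at 0.19 and 0.121 RPKM. Of the proteins these factors are known to control, vimentin, *VIM*, was at 18.5 and 18.9 RPKM and N-cadherin, *CDH2*, at 5.95 and 5.42 RPKM. *CDH1* was 25.5-fold above *CDH2* and 7.73-fold above *VIM*. The gelatinase *MMP2* (30.1 and 29 RPKM) and fibronectin, *FN1* (13.7 and 12.8 RPKM), were expressed. Of the fibrillar collagens *COL1A1* was at 4.16 and 4.44 RPKM, while *COL1A2* (0.0418 and 0.0477 RPKM) and *COL3A1* (0.0329 and 0.0261 RPKM) lay below 0.1 RPKM.

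**Figure D3:**
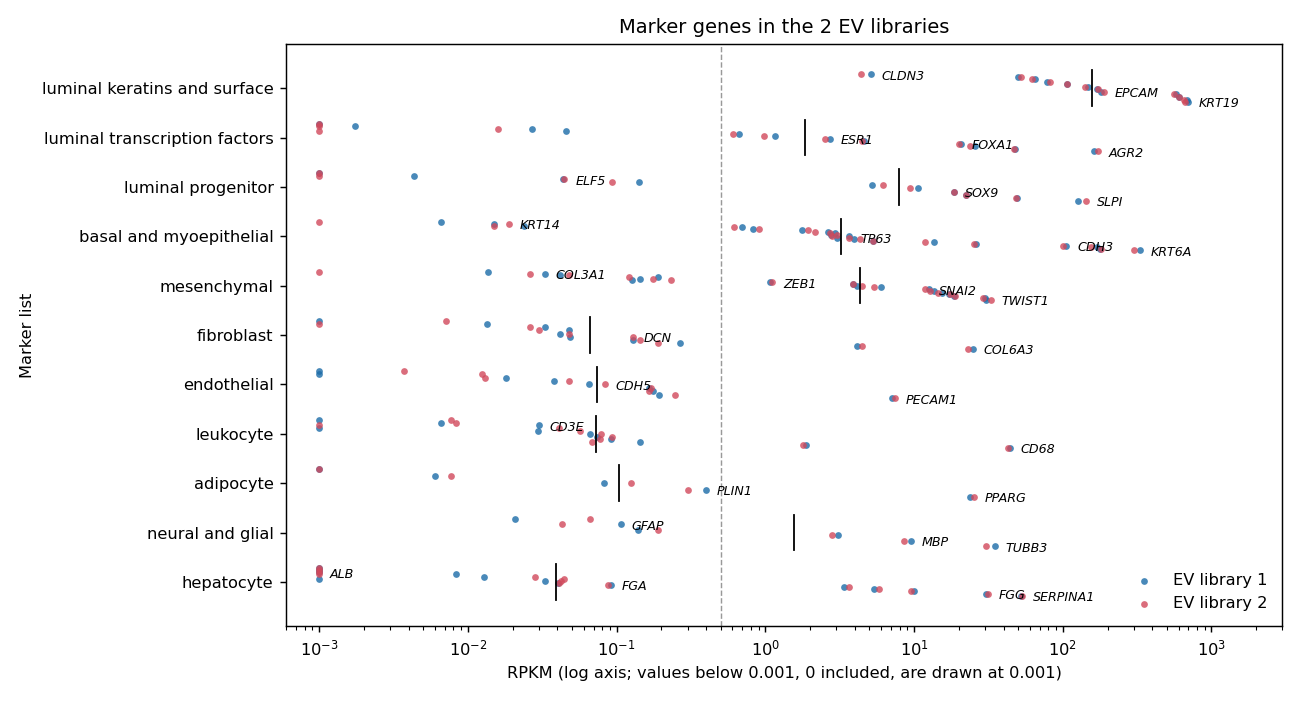
RPKM (log axis) of every gene found of 11 marker lists in EV library 1 (blue) and EV library 2 (red), with a black bar at the median of each list, a dashed line at 0.5 RPKM and selected genes named. The luminal keratin and surface genes lie between 5.12 and 697 RPKM in library 1, whereas the medians of the fibroblast, endothelial, leukocyte and hepatocyte lists lie below 0.1 RPKM.

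Markers of other cell types were mostly low, each list with a smaller share expressed than the 62.2% of all genes. The neural and glial list came nearest to that share. The fibroblast list had 2 of 10 genes expressed (median 0.0666 RPKM), the endothelial list 1 of 9 (0.0743 RPKM), the leukocyte list 2 of 11 (0.0726 RPKM), the adipocyte list 1 of 5 (0.104 RPKM) and the neural and glial list 3 of 6 (1.55 RPKM), against 2.02 RPKM over all genes. Of fibroblast genes, *COL6A3*, a collagen VI chain, was at 25 and 23.2 RPKM and *COL1A1*, a collagen I chain, at 4.16 and 4.44 RPKM. *PECAM1*, an adhesion receptor of endothelium and leukocytes, was at 7.12 and 7.46 RPKM. Of leukocyte genes, the lysosomal protein *CD68* was at 44.1 and 43.2 RPKM and *CSF1R*, a macrophage growth factor receptor, at 1.89 and 1.8 RPKM. The lipid sensor *PPARG* was at 23.8 and 25.3 RPKM. The expressed neural genes were the tubulin *TUBB3* (35 and 30.6 RPKM), the myelin gene *MBP* (9.47 and 8.6 RPKM) and *MAP2* (3.07 and 2.8 RPKM), whose product binds microtubules. The rest of that list was low, with *SYP* at 0.139 and 0.189, *GFAP* at 0.106 and 0.0426 and *SNAP25* at 0.0208 and 0.066 RPKM. Several defining genes were low: *PTPRC*, the common leukocyte antigen, was at 0 and 0.00773 RPKM, *CDH5*, the endothelial cadherin, at 0.0655 and 0.083 RPKM and *LUM*, a fibroblast proteoglycan, at 0.267 and 0.19 RPKM. Of the milk protein list only 3 genes were in the table, and the xanthine oxidoreductase gene *XDH* (3.0 and 2.81 RPKM) alone was expressed.

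The hepatocyte list was less uniform, since 5 of its 14 genes were expressed although the median was 0.0392 RPKM. *SERPINA1*, α1-antitrypsin, was at 52 and 53.2 RPKM and *FGG*, fibrinogen γ, at 30.5 and 31.5 RPKM. The other chains of fibrinogen, which joins 3 kinds of chain in equal numbers, were lower. *FGB* was at 3.39 and 3.63 RPKM and *FGA* at 0.0914 and 0.087 RPKM, so *FGG* was 8.84-fold above *FGB* and 348-fold above *FGA*. Angiotensinogen, *AGT* (10.03 and 9.51 RPKM), and haptoglobin, *HP* (5.39 and 5.82 RPKM), were also expressed. Albumin, *ALB*, and *AHSG*, fetuin A, were listed at 0 in both libraries.

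*ERBB2* was the most abundant receptor tyrosine kinase on the lists, at 444 and 423 RPKM and rank 79 of 20824. It was 34-fold above *EGFR* (13.6 and 11.9 RPKM) and 42.4-fold above *ERBB3* (10.5 and 9.94 RPKM), its partner in signalling to PI3-kinase. *ERBB4* was near 0 (0.00569 and 0 RPKM). Of the receptors for insulin and its relatives, *IGF2R*, which carries ligand to lysosomes, was at 25.7 and 23.7 RPKM, *IGF1R* at 5.13 and 4.92 RPKM and *INSR* at 1.6 and 1.6 RPKM. Ligands of EGFR were expressed as well. Of 10 EGF family ligands 8 passed 0.5 RPKM (80%, against 62.2% of all genes). Epigen (*EPGN*, 39.5 and 38.2 RPKM), amphiregulin (*AREG*, 35.8 and 38.4 RPKM) and epiregulin (*EREG*, 36.7 and 37 RPKM) were nearly level, ahead of *TGFA* (15 and 13.7 RPKM) and *HBEGF* (7.8 and 8.47 RPKM). The neuregulin genes, whose products bind ERBB3 and ERBB4, were lower, with *NRG1* at 0.43 and 0.39 RPKM and *NRG4* at 0.933 and 0.986 RPKM.

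Of 38 other receptor tyrosine kinases, 17 were expressed (44.7%, against 62.2% of all genes) and the median was 0.19 RPKM. The ephrin receptors *EPHA2* (68.9 and 64.2 RPKM) and *EPHB4* (59.96 and 55.3 RPKM) led, followed by the WNT receptor *RYK* (37.4 and 36.8 RPKM), the collagen receptor *DDR1* (33.7 and 31.1 RPKM), *AXL* (30.6 and 29.2 RPKM), *MST1R* (29.2 and 26.8 RPKM) and the hepatocyte growth factor receptor *MET* (24.8 and 24.6 RPKM). Of the fibroblast growth factor receptors *FGFR1* (10.9 and 10.2 RPKM) was above *FGFR4* (3.09 and 2.55 RPKM), while *FGFR2*, the usual form of epithelium, was at 0.105 and 0.0977 RPKM and *FGFR3* at 0.153 and 0.149 RPKM. *PDGFRA* was at 8.08 and 7.98 RPKM and *PDGFRB* at 0.0475 and 0.0301 RPKM. *FLT3* was listed at 0, and *RET*, *ALK* and the neurotrophin receptor *NTRK2* lay below 0.1 RPKM.

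Among 23 nuclear receptors 15 were expressed (65.2%, near the 62.2% of all genes), with a median of 4.55 RPKM. The oxysterol receptor *NR1H2* (43.9 and 41.2 RPKM), the retinoic acid receptor *RARG* (36.9 and 34.5 RPKM) and *PPARG* (23.8 and 25.3 RPKM) were the highest. The vitamin D receptor *VDR* was at 15.3 and 13.3 RPKM and the retinoid partner *RXRA* at 15.7 and 14.4 RPKM. The glucocorticoid receptor *NR3C1*, whose ligand hydrocortisone was in the medium, was at 5.07 and 4.55 RPKM, 1.85-fold above *ESR1*. The mineralocorticoid receptor *NR3C2* was at 0.00767 and 0.0146 RPKM, and *RARB* was listed at 0. Of 15 genes known to respond to glucocorticoids, 13 were expressed (86.7%, against 62.2% of all genes), with a median of 22.8 RPKM. Among them were *FKBP5* (31.3 and 31.9 RPKM), *PER1* (26 and 25.8 RPKM) and *TSC22D3* (16 and 16.3 RPKM). Not expressed were *ZBTB16*, at 0.131 and 0.0709 RPKM, and *TAT*, a liver target, at 0.0082 and 0 RPKM. No culture without hydrocortisone was sequenced, so these are levels and not responses.

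The neighbours of *ERBB2* on chromosome 17 were also high. In GRCh37, *ERBB2* lies from 37844167 to 37886679 on the plus strand, and the next gene, *MIEN1*, on the minus strand from 37884749 to 37886785. *MIEN1*, which encodes a membrane-anchored protein named for migration and invasion, was at 401 and 414 RPKM, near the level of *ERBB2* itself. *STARD3*, a cholesterol transporter of endosomes, was at 266 and 259 RPKM and *GRB7*, an adaptor protein that binds receptor kinases, at 179.8 and 184 RPKM. *PGAP3*, a lipid remodelling enzyme, followed at 64.8 and 65.8 RPKM. Between and beside these lay genes that were lower than these but above the median of 2.02 RPKM over all genes: *PNMT* (13.2 and 13.2 RPKM), *TCAP* (4.84 and 4.23 RPKM) and *PPP1R1B* (7.59 and 7.48 RPKM). The next genes on the far side, *IKZF3*, a lymphoid factor (0.00678 and 0.0143 RPKM), and *ZPBP2*, listed at 0, were at or near 0. Further out, *PSMD3*, a proteasome subunit, was at 86.7 and 83.4 RPKM and *CDK12*, a transcription kinase, at 62.2 and 59.6 RPKM. Of the 29 genes of this list, 23 were expressed (79.3%, against 62.2% of all genes) and 6 lay below 0.1 RPKM. The median was 7.54 RPKM.

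When the 11762 expressed coding genes were read in chromosome order in 11670 windows of 5, the window from *PNMT* to *GRB7* had a median of 182 RPKM (180 and 184 by library), against 8.74 RPKM for the median window. Among windows that do not overlap it was exceeded by 1, on chromosome 12 from *KRT6C* to *KRT18* (315 RPKM). The next, also on chromosome 17, ran from *PSMB3* to *LASP1* (36908994 to 37078023) with a median of 172 RPKM. In windows of 8 genes the *ERBB2* window, from *PPP1R1B*, again came after the keratins, at 124 RPKM, and in windows of 10 it ranked 3 at 75.2 RPKM. DNA copy number was not measured in these samples. The bounds of *ERBB2* overlap those of *MIEN1* and *PGAP3*, and the libraries were stranded, but whether counting used the strand is not given in the sources used here.

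**Figure D4:**
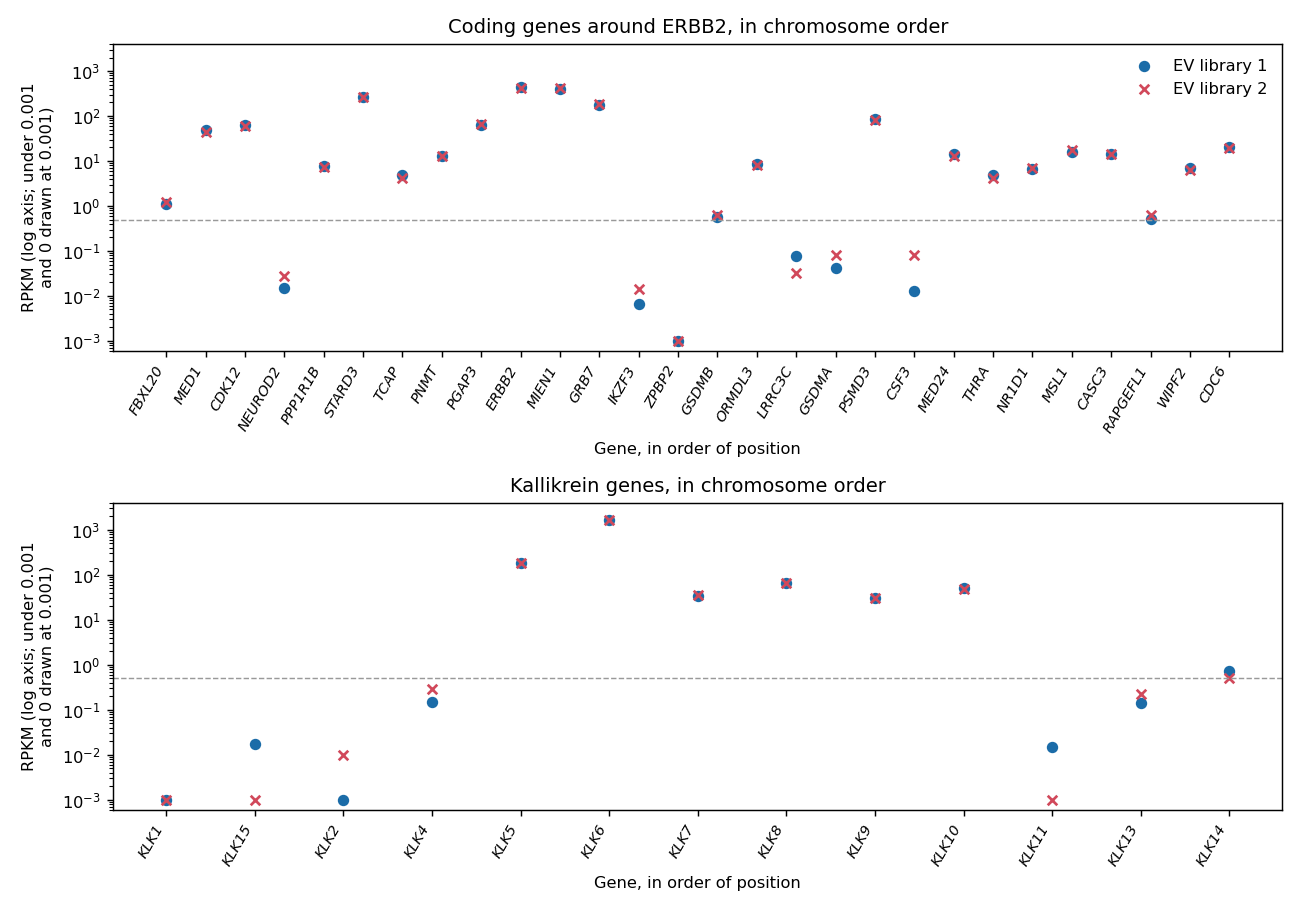
RPKM (log axis) in EV library 1 (circles) and EV library 2 (crosses) of 28 coding genes around *ERBB2* (top) and of 13 kallikrein genes (bottom), each in chromosome order and evenly spaced, with 0.5 RPKM dashed. *STARD3*, *ERBB2*, *MIEN1* and *GRB7* lie above 100 RPKM, and the 6 kallikrein genes from *KLK5* to *KLK10* lie above 30 RPKM with genes below 1 RPKM on either side.

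The start read for *ERBB2* and the start read for *PGAP3*, the first listed for each gene, lie head to head. Any other start of these genes is not shown. In GRCh37 the bounds of the 2 genes overlap, since *PGAP3* runs to 37853050 and *ERBB2* begins at 37844167. By RefSeq (GRCh38.p14) the 2 starts read are 37 bases apart, and the 36 bases between them are shown because these starts lie at its ends. This stretch, chr17:39688058-39688093 on the plus strand, holds the letters CCGGAAG on each strand, shown in capitals. These letters, a core of sites bound by ETS factors, were chosen after the sequences had been read, and they also occur at the starts of *STARD3* (chr17:39637126-39637155, plus strand) and *MIEN1* (chr17:39730515-39730544, minus strand), of which 30 bases are given. For *GRB7* no separate result is given here.
ERBB2 to PGAP3: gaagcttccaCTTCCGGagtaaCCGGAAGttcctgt
STARD3: gtggcgctgCCGGAAGatcttcttccgctc
MIEN1: gcggttcgcgtcacacCCGGAAGcaggggc
Within 50 bases on either side of the start, and counting both strands, CCGGAAG was found in 5.59% of all 35116 promoters of the table, in 9.82% of those of expressed genes and in 1.99% of those of genes below 0.1 RPKM. For promoters of genes of at least 100 RPKM, the class of *ERBB2*, *STARD3* and *MIEN1*, the share was 11.2%. A match is a description of letters only.

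The kallikrein genes formed a sharper block. They lie together on chromosome 19, where *KLK6* occupies 51461887 to 51472929 of GRCh37 on the minus strand. The 6 neighbours from *KLK5* to *KLK10* were all expressed: *KLK5* at 181 and 183, *KLK6* at 1625 and 1642, *KLK7* at 34.4 and 36.3, *KLK8* at 65.1 and 67.4, *KLK9* at 30.4 and 30.3 and *KLK10* at 50.03 and 49.8 RPKM. *KLK6* was 8.99-fold above *KLK5*, 9.0-fold and 8.98-fold by library. On either side the level fell by orders of magnitude, to 0.15 and 0.295 RPKM for *KLK4* and 0.0149 and 0 RPKM for *KLK11*, and *KLK1* was listed at 0 in both. Of the 13 members found, 7 were expressed (53.8%, near the 62.2% of all genes), the last being *KLK14* at 0.733 and 0.52 RPKM. These secreted serine proteases activate each other in skin and other epithelia. *KLK8* and *KLK9* overlap at their ends on the same strand, so their reads may be shared in part.

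The list of secreted proteases and inhibitors had 23 of 27 genes expressed (85.2%, against 62.2% of all genes), with a median of 22.1 RPKM. It counts *KLK5*, *KLK6* and *KLK10* again, and also holds the lysosomal *CTSD* and the receptor *PLAUR*. After *KLK6* and *CTSD* the highest was an inhibitor, *TIMP1* (230.0 and 239 RPKM), 10.5-fold above *TIMP2* (22.6 and 22.1 RPKM), and *TIMP3* was at 0.0494 and 0.0366 RPKM. Cystatin M, *CST6*, which inhibits legumain and cathepsins, was at 133 and 129.9 RPKM. The membrane-anchored metalloprotease *MMP14* was at 55.2 and 52.7 RPKM, above its substrate proMMP2 (*MMP2*, 30.1 and 29 RPKM), while *MMP9* was at 2.65 and 2.05 RPKM and *MMP1*, *MMP3*, *MMP7*, *MMP10*, *MMP11* and *MMP13* lay below 1 RPKM. Urokinase, *PLAU* (25.6 and 28.4 RPKM), and its receptor *PLAUR* (21.2 and 20.6 RPKM) were at similar levels. *SERPINB5*, maspin, which is named for mammary tissue, was at 38.8 and 37.5 RPKM.

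RNA of basement membrane genes was present as well. Of 21 genes 15 passed 0.5 RPKM (71.4%, near the 62.2% of all genes), with a median of 11.05 RPKM. Of laminin-332, the laminin of epithelial anchoring, the β chain *LAMB3* was at 109 and 107 RPKM and the α chain *LAMA3* at 20.4 and 19.5 RPKM, 5.41-fold below *LAMB3*. The general laminin chains *LAMB1* (89.8 and 87.5 RPKM), *LAMA5* (88.9 and 82.4 RPKM) and *LAMC1* (51.6 and 50.7 RPKM) were high as well, and collagen IV was represented by *COL4A2* (41.2 and 38 RPKM) and *COL4A1* (15 and 12.9 RPKM). Among the low members were the linker nidogens, with *NID1* at 0.0269 and 0.0341 RPKM and *NID2* listed at 0. The hemidesmosomal collagen *COL17A1* was at 0.105 and 0.128 RPKM. Of the laminin receptors, *ITGB4* (171 and 154 RPKM) was 6.32-fold above its partner *ITGA6* (26 and 25.4 RPKM), and *ITGB1* (179.7 and 177 RPKM) and *ITGA3* (165 and 156 RPKM) were near each other.

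Genes of DNA replication and mitosis were high. Of 30 proliferation genes 29 were expressed (96.7%, against 62.2% of all genes), with a median of 52.0 RPKM. The replication genes *MCM7* (177 and 170.3 RPKM) and *PCNA* (164 and 159 RPKM) led, mitotic genes such as *CCNB1* (79.6 and 77.3 RPKM), *AURKA* (73.4 and 73 RPKM) and *PLK1* (71.6 and 67 RPKM) followed, and *MKI67*, the gene of the clinical marker Ki-67, was at 24.4 and 24.3 RPKM. Of the D cyclins *CCND3* (71.1 and 66.1 RPKM) was above *CCND1* (46.4 and 43.4 RPKM), and *CCND2* (0.00347 and 0.0044 RPKM) was the single gene of the list not expressed. All 11 cell cycle inhibitors were expressed too, led by *CDKN2A* (32 and 30.4 RPKM), whose line does not separate p16 from p14ARF, and *CDKN1A* (25 and 23.1 RPKM). *RB1*, the target of p16 signalling, was at 8.41 and 8.19 RPKM.

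Of 25 breast tumour suppressors and oncogenes 23 were expressed (92%, against 62.2% of all genes). Among the 79 transcription factors on the lists 45 were expressed, a share near that of all genes. *MYC* was the highest of these factors, at 78 and 74.3 RPKM. *FOXM1* (67.8 and 65 RPKM), a mitotic factor, *ELF3* (49.99 and 52.4 RPKM), an epithelial ETS factor, and *XBP1* came next, then *NR1H2*, *RARG*, *TWIST1*, *SPDEF*, *PPARG* and the lipid regulator *SREBF1* (24.6 and 22.1 RPKM). *AKT1* was at 71.4 and 67.4 RPKM, *BRCA1* at 7.27 and 6.63 RPKM and *PIK3CA* at 6.47 and 6.54 RPKM. *TERT*, telomerase, was at 0.0113 and 0.0286 RPKM, near the value of 1 alignment per kb.

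*TBX3*, the gene studied in the series, lies on chromosome 12 from 115108060 to 115121980 of GRCh37. In EV cells it was at 8.52 and 8.24 RPKM, rank 6188, about 4 times the median gene. It was nonetheless the highest of 16 T-box genes, of which 6 were expressed (37.5%, against 62.2% of all genes) and 5 were listed at 0. *MGA*, a factor with both a T-box and a MAX-binding domain, was at 3.92 and 3.91 RPKM, *TBX6* at 3.48 and 2.94 RPKM and *TBX1* at 2.87 and 2.84 RPKM. *TBX2*, the closest relative of *TBX3*, was at 0.589 and 0.433 RPKM, 16.4-fold below it, and these 2 libraries differ on which side of 0.5 RPKM it falls. The line gives the sum over isoforms.

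Of 19 genes whose symbols begin with S100, 16 were expressed (84.2%), against 62.2% of all genes. They encode small calcium-binding proteins, except for *S100PBP* (4.6 and 5.18 RPKM), which the count includes. After *S100A6* came *S100A9* (625 and 647 RPKM), *S100A11* (618 and 651 RPKM), *S100A10* (243 and 252 RPKM) and *S100A16* (224 and 220.1 RPKM). *S100A8*, which pairs with *S100A9* in calprotectin, was 7.33-fold lower at 84.2 and 89.4 RPKM, while *S100A7*, psoriasin, known from high-grade DCIS, was at 0.154 and 0.653 RPKM. Of 9 metallothioneins, which bind zinc and other metals, 6 were expressed (66.7%), a share near that of all genes. *MT2A* was 6.0-fold above *MT1X* (202 and 206 RPKM) and further above *MT1E* (39.5 and 36.1 RPKM). The metallothioneins differ from each other at few bases, so the split is uncertain.

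The genes through which the cells meet immune cells were expressed unevenly. *B2M*, the light chain of HLA class I, was at 741 and 745 RPKM, 10.8-fold above *HLA-C* (69.2 and 67.9 RPKM). *HLA-B* was at 49.8 and 49.8 RPKM. HLA genes are polymorphic, and reads of alleles unlike the reference can fail to align. Of class II, *CD74*, the invariant chain, was at 29.4 and 29.1 RPKM, *HLA-DRA* at 4.32 and 4.13 RPKM and *HLA-DRB1* at 0.0757 and 0.0267 RPKM. *CD274*, which encodes PD-L1, was at 5.4 and 5.1 RPKM. Of 26 cytokines and chemokines, 17 were expressed (65.4%, near the 62.2% of all genes) and 7 lay below 0.1 RPKM. *MIF* stood far above the others at 855 and 771 RPKM. Next came *CXCL5* (37.7 and 41.4 RPKM), *CSF1* (29.1 and 28.6 RPKM), *CXCL8* (15.2 and 17.8 RPKM) and *CXCL16* (16 and 15.9 RPKM), while *TNF* (0.0405 and 0.0399 RPKM) and the stromal chemokine *CXCL12* (0.00427 and 0 RPKM) were near 0 and *CCL2* was listed at 0.

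Among 19 long noncoding RNAs 15 were expressed (78.9%, against 62.2% of all genes), with a median of 17.3 RPKM. *DANCR*, a host of small nucleolar RNAs, was at 115 and 114 RPKM, the imprinted *H19* at 67.8 and 65.1 RPKM, *SNHG1* at 58.9 and 65.1 RPKM and *CCAT1* at 27.6 and 24.2 RPKM. *MALAT1* (15.8 and 18.9 RPKM) and *NEAT1* (20.3 and 24.3 RPKM), nuclear transcripts, were moderate, and *HOTAIR* was at 2.22 and 2.15 RPKM. *HOTAIR* lies in the HOXC cluster, in which 8 of 9 genes were expressed, against 5 of 9 HOXB, 4 of 11 HOXA and 0 of 6 HOXD genes. Over all genes the share was 62.2%. These counts depend on the threshold of 0.5 RPKM. *HOXC4* (0.536 and 0.628 RPKM), *HOXC12* (0.746 and 0.608 RPKM) and *HOXC8* (0.771 and 0.727 RPKM) lay just above it, and *HOXB9* (0.477 and 0.478 RPKM) just below. HOX genes encode transcription factors of body position. *HOXB2* (21.6 and 20.9 RPKM), *HOXC10* (13.7 and 13.1 RPKM), *HOXB7* (11.8 and 11.3 RPKM) and *HOXA10* (10.3 and 10.8 RPKM) were the highest, and the highest HOXD gene, *HOXD3*, was at 0.00983 and 0.0125 RPKM.

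Several gene families used in other tissues were largely silent. Of 66 olfactory receptor genes 6 were expressed (9.09%), of 20 keratin-associated protein genes of hair 0, of 17 taste receptor genes 1, of 5 interferon genes 0 and of 60 cytochrome P450 genes 12, against 62.2% of all genes. Of 79 symbols that match names of cancer testis families 9 were expressed, among them *SSX2IP* (4.1 and 4.04 RPKM), named as a partner of SSX2. A clear exception was *MAGEA12*, on the X chromosome, at 29.7 and 28.4 RPKM, since the other 12 MAGEA genes lay below 0.1 RPKM; members of this family share sequence. Of 7 pluripotency genes *KLF4* (7.83 and 7.86 RPKM), which epithelia also use, was expressed, and *SOX2* was at 0.081 and 0.115 RPKM and *POU5F1* at 0.00425 and 0.00837 RPKM. Of 21 claudin symbols 8 were expressed, *CLDN7* (107 and 106 RPKM), *CLDN12* (84.9 and 83.7 RPKM) and *CLDN4* (64.6 and 62.6 RPKM) the highest. In chromosome order, 10 runs of at least 8 consecutive coding genes lay below 0.1 RPKM throughout. The longest held 21 genes of the PRAMEF region on chromosome 1 (12704104 to 13944452), followed by 19 USP17L genes on chromosome 4, 17 GAGE genes on the X chromosome, 13 genes of the keratin-associated cluster on chromosome 17 and 13 CT47 genes on the X chromosome. These are repeated gene families, whose reads could have been divided or lost.

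Promoters of expressed and silent genes differed in composition. The 250 bases before the canonical start in GRCh37 were read for 18754 genes (90.1%). In vertebrate genomes CG is depleted except in CpG islands, which cover the starts of most widely used genes. The median CpG ratio, observed over expected from the C and G content, was 0.836 for expressed genes and 0.424 for genes below 0.1 RPKM, and 83.2% and 37.2% of them reached 0.6. The ratio rose with each abundance class, from 0.357 for genes listed at 0 to 0.914 at 1000 RPKM or more. The sequence TATAAA, the core of the TATA box that positions RNA polymerase II, went the other way at first, then returned. The search was on the strand of the gene itself. It was found in 10.3% of genes below 0.1 RPKM, 3.62% of expressed genes and 3.07% of those between 10 and 100 RPKM. Between 100 and 1000 RPKM it was in 8.08%, and at 1000 RPKM or more in 4 of 16. The shorter TATAA between 35 and 16 bases before the start, a measure added after the data had been seen, was in 13.2% of genes between 100 and 1000 RPKM, in 8 of 16 above, and in 4.87% of all.

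**Figure D5:**
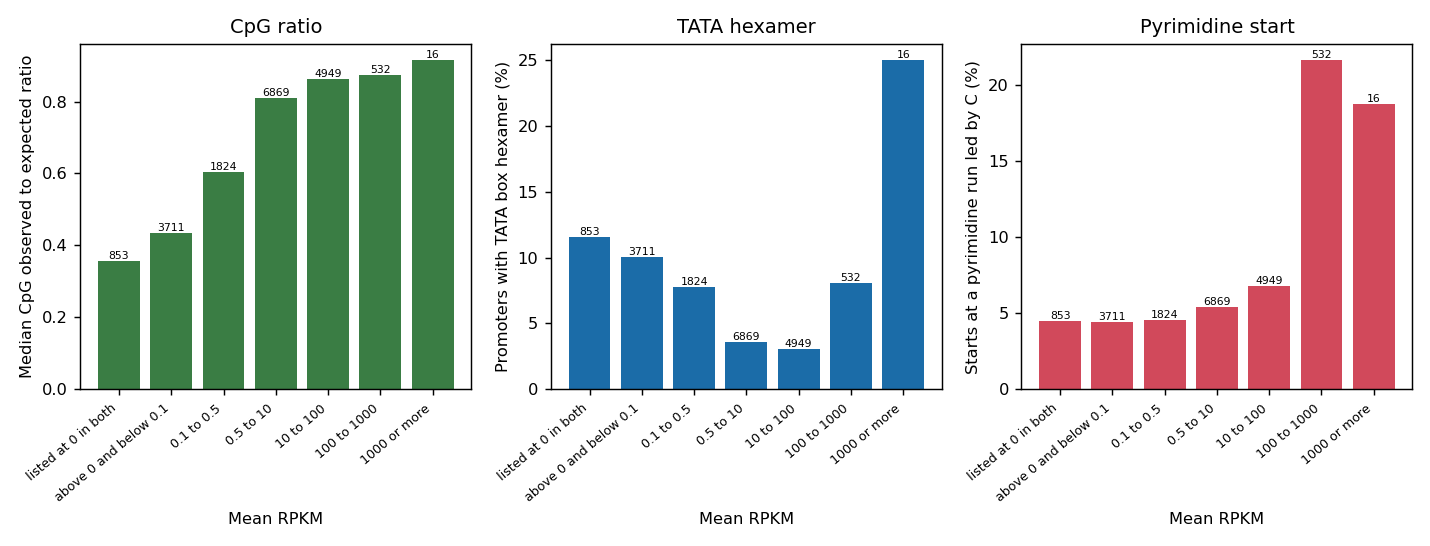
Median CpG observed to expected ratio (left), percent of promoters with the TATA box hexamer (middle) and percent of starts at C followed by 3 pyrimidines (right), by mean RPKM of the 2 EV libraries, with the number of genes above each bar. The CpG ratio climbs from 0.357 to 0.914, the hexamer falls to 3.07% between 10 and 100 RPKM and is 25% of 16 genes in the top class, and pyrimidine starts reach 21.6% between 100 and 1000 RPKM.

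The TATA sequences of some abundant genes, and of *KLK7* at rank 1887, are shown as examples from genes of unlike function. They were picked for holding TATAA near the start, so their likeness in position and letters comes from the choice and is no result. *KLK6* is set beside its neighbours because the window before the start read for it holds no TATAA. Each stretch runs from 43 to 14 bases before the RefSeq start (GRCh38.p14), with TATAA in capitals. The stretches are chr2:84905613-84905642 (plus), chr1:153536005-153536034 (minus), chr16:56608541-56608570 (plus), chr1:153357811-153357840 (plus), chr15:44711474-44711503 (plus), chr19:50953052-50953081 (minus), chr19:50983931-50983960 (minus) and chr19:50969605-50969634 (minus), in the order of the lines.
TMSB10: ggggcgcggcgtaTATAAggctaggggcgg
S100A6: gggcaccgaccgcTATAAggccagtcggac
MT2A: cggctctttctagcTATAAacactgcttgc
S100A9: agtcaggagctgccTATAAatgccgagcct
B2M: tgggcacgcgtttaaTATAAgtggaggcgt
KLK5: ggagcagtgggtggtTATAActcaggcccg
KLK7: atggggcggggggtgaTATAAgaggacggc
KLK6: cgcgcctgggcctgctccccagcccggggc
In the 7 that hold it, TATAA began between 30 and 27 bases before the start. In *KLK7* it belongs to 1 of 3 starts. *KLK6*, the most abundant of the kallikreins, has no such letters in this window, for which 1 start was read. Any other start of *KLK6* is not shown.

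Starts at C followed by at least 3 more pyrimidines are known from genes of the translation machinery, in which the pyrimidine run opens the messenger RNA and couples its translation to growth signals. Such a start was annotated for 61 of 79 ribosomal protein genes (77.2%), against 5.93% of all genes. It was in 21.6% of genes between 100 and 1000 RPKM, and in 13.8% of genes of at least 100 RPKM once ribosomal protein genes were set aside. The starts of *RPL41*, *EEF1A1*, *RPLP0*, *RPS6*, *RPS27* and *RPS12* are given as examples among the abundant genes, 10 bases before and 20 from the start, with the pyrimidine run from the start in capitals. They are chr12:56116623-56116652 (plus), chr6:73521013-73521042 (minus), chr12:120201092-120201121 (minus), chr9:19380217-19380246 (minus), chr1:153990752-153990781 (plus) and chr6:132814559-132814588 (plus) of GRCh38.p14.
RPL41: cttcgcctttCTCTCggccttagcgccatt
EEF1A1: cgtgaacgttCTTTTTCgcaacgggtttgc
RPLP0: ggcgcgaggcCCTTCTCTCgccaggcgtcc
RPS6: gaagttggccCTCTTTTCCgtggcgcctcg
RPS27: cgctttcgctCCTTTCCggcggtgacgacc
RPS12: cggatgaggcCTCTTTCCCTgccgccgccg
The runs are 5 bases long in *RPL41*, 7 in *EEF1A1* and *RPS27*, 9 in *RPLP0* and *RPS6* and 10 in *RPS12*. Among the 2 with runs of 9, *RPLP0* was at 863 and 879.9 RPKM and *RPS6* at 685 and 724 RPKM.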

How the data were processed

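Gene expression was measured by stranded, paired-end mRNA sequencing. Per the labels and the methods of the study, the authors aligned reads to hg19 with TopHat in Galaxy, allowing up to 10 alignments per read, and computed RPKM in Partek, whose versions are not given in the sources used here. The deposited RPKM table was used as it stands, without its row of alignment totals, and only its 2 EV columns entered. The mean of the 2 libraries and the SD (n = 2) were computed with pandas 2.3.3 in Python 3.11.15. No comparison between groups was made and no test was run. For the log2 difference between libraries 0.1 RPKM was added.

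Members, 34 gene lists and 32 symbol families, 7 of them added last, were chosen with earlier results of these data known. Named were the 25 most abundant genes, the 10 highest outside translation, the highest members and absent defining members of each list, the highest of each family, *TBX3*, the 10 highest transcription factors of the lists and the 10 genes of at least 5 RPKM that differed most between libraries. Positions and promoters came from the GRCh37 annotation, in which 91.7% of genes were placed, and printed sequences from RefSeq (GRCh38.p14). Alternatives covered the threshold, the amount added, the scaling and leaving out either library. Of 15 genes of the mitochondrial genome, 0 were analysed here. RPKM values give no read counts per gene, so precision rests on the depth and the spread of the 2 libraries, and levels of overlapping or near-identical genes are uncertain. Some genes that this rule names are not reported here.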

Additional observations from a re-analysis of the deposited data

How the results depend on the processing

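Leaving out either library moved the number of genes listed at 0 from 1160 to between 1947 and 2144, and taking the lower of the 2 libraries gave 2931. With each library rescaled to sum to 1000000, 2047 genes reached 100 in place of 557. Without ribosomal protein genes, the shares held by the highest 10, 100 and 1000 genes were 6.34%, 21.3% and 54.2%. The SD of the log2 difference between libraries was 0.20 with 0.01 RPKM added, 0.12 with 1 RPKM added, 0.29 without a filter on low values and 0.12 over genes of at least 2 RPKM. The median CpG ratio of expressed genes was 0.836 without either library, 0.844 at a threshold of 1 RPKM and 0.820 at 0.1 RPKM. TATAAA was in 3.62% (without library 2) to 3.68% (without library 1) of expressed genes when either library was left out, in 3.47% at a threshold of 1 RPKM and in 4.16% at 0.1 RPKM. Among genes below 0.1 RPKM it was in 10.2% to 10.3% when either library was left out. With TATAA near the start, chosen after seeing the data, the shares were 3.37% and 7.93%. In all, 21 settings moved a main value, as given above, and 61 did not. A count was taken as kept within 1.5 times itself and another value within 1 SD of the 2 libraries. Exceptions were the SD of the log2 difference, held to a small fixed margin, and TATAA near the start, entered as moved by choice. By the measures for counts and other values, 156 settings moved a value of a single list and 468 did not. The number of expressed genes was 15224 at a threshold of 0.1 RPKM, 11791 at 1 RPKM and 14563 after rescaling, against 12955. The alternative without genes of the mitochondrial genome was not run, since none was in the table. No paired analysis was possible because no contrast was made. On short transcripts, values below 0.1 RPKM rest on few alignments, and these 2 libraries may differ by technical spread alone.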

Other observations

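Some abundant genes belonged to no list. *CYP1B1*, a cytochrome P450 that oxidises oestrogens and polycyclic hydrocarbons, was at 51.8 and 50.9 RPKM, the highest of the 60 P450 symbols, of which 12 were expressed. *COL8A1*, a short-chain collagen, led 42 collagen symbols at 42.7 and 38.7 RPKM, above *COL4A2* (41.2 and 38 RPKM) and *COL6A3* (25 and 23.2 RPKM). *HIST1H2BK*, a histone H2B gene, was at 129 and 128 RPKM and led 66 histone symbols. Of these, 40 were expressed (60.6%, near the 62.2% of all genes). *PCDHGC3*, a clustered protocadherin, was at 11.5 and 11.2 RPKM and led 57 symbols, of which 10 were expressed. All but 1 of 38 proteasome symbols were expressed, with a median of 68.3 RPKM, and *PSMA7* led at 303 and 301 RPKM. Of 106 respiratory chain symbols 103 were expressed, with a median of 39.9 RPKM, and *ATP5B*, the catalytic subunit of ATP synthase, led at 525 and 521 RPKM.

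After the 3 windows described above, the next highest windows of 5 expressed coding genes lay on chromosome 12 from *COX6A1* to *DYNLL1* (median 153 RPKM), on chromosome 5 from *HNRNPH1* to *SQSTM1* (141 RPKM) and on chromosome 12 from *RBMS2* to *NACA* (139 RPKM). They hold genes of protein folding, splicing and respiration.

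Of 221 small nucleolar RNA symbols 80 were expressed, led by *SNORD141A* (182 and 192 RPKM). Of 195 microRNA symbols 37 were expressed, led by *MIR492* (154 and 147 RPKM). Such genes are short and often lie within other transcripts, and a library of mRNA does not sample them as mature small RNAs. Of 504 long intergenic symbols 116 were expressed, led by *LINC00998* (49.9 and 52.8 RPKM), and of 688 antisense symbols 230, led by *LRRC75A-AS1* (64.3 and 65.8 RPKM).

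*MTRNR2L9* (231 and 296 RPKM), *MTRNR2L2* (191 and 235 RPKM) and *MTRNR2L8* (179 and 237 RPKM), nuclear genes that resemble the mitochondrial ribosomal RNA, were each higher in library 2. The other 5 of the 8 symbols lay below 3 RPKM. Mitochondrially encoded genes themselves were not analysed here. Haemoglobin *HBA1* was at 1.23 and 0.851 RPKM, and the near-identical *HBA2* at 9.66e-09 and 1.61e-06 RPKM.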
